A study of Mus musculus with 6 samples.

Results

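De novo lipogenesis, the making of fatty acids from acetyl-CoA, was followed here through 10 genes of its enzymes and regulators. They were Acly, Acaca, Acacb, Fasn, Scd1, Srebf1, Mlxipl, Thrsp, Acss2 and Slc25a1, taken by name as the core of the pathway. They were chosen with earlier results of these data known. All 10 of the 18193 genes with a probe set of their own on the arrays were found, with 22 of 45037 probe sets. A probe set is a group of short probes read together as 1 signal, which can come from more than 1 transcript. The liver RNA came from 6 male mice aged 9 weeks, 1 mouse per single-colour Affymetrix array. The 3 knockouts, numbered 3, 4 and 5 in the labels, were Alb-Cre::Keap1(flox/-), in which 1 Keap1 allele can be cut by Cre and the other is null. The 3 genetic controls, numbered 1, 2 and 3, were Alb-Cre:Keap1(flox/+). Both groups carried Cre under the albumin promoter, which is active in hepatocytes, so where Cre acts the controls keep 1 working allele, while the null allele of the knockouts is present in every cell. All mice had been given vehicle alone, a mixture of 10% DMSO, 10% Cremophor-EL and 80% PBS. Whether the mice had been fed or fasted, and the hour of tissue collection, was not stated in the labels. KEAP1 holds the transcription factor NRF2 at a low level, and the comparison asks how hepatic transcripts differ when KEAP1 is lost.

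Fatty acid synthesis in the liver starts from citrate, which the carrier encoded by Slc25a1 brings out of the mitochondrion. ATP citrate lyase (Acly) cleaves it to acetyl-CoA, acetyl-CoA carboxylase (Acaca in the cytosol, Acacb at the mitochondrial membrane) makes malonyl-CoA, and fatty acid synthase (Fasn) builds palmitate from both. The desaturase Scd1 adds a double bond, and Acss2 supplies further acetyl-CoA from acetate. After a meal the transcription factors SREBP-1c, a product of Srebf1, and ChREBP, the product of Mlxipl, raise these genes in response to insulin and glucose, and Thrsp (Spot 14) is a classical target of both.

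Signals are linear array intensities, and differences are given as log2(signal + 16), knockout minus control, from 1 limma fit over 27022 probe sets with Benjamini-Hochberg adjustment. A probe set "fell" or "rose" if its adjusted p was under 0.05. The trimmed mean signal was equal on all arrays. The label check held in both directions: the brighter Keap1 probe set went from 776 ± 72.1 in controls to 230 ± 88.6 in knockouts (SD, n = 3 each; difference -1.74, limma adjusted p = 0.0103), while a second one, at 62.5% of control, did not pass (adjusted p = 0.223). Nqo1, a standard NRF2 target, stood at 2842, 2946 and 2509 in the knockouts and at 487, 495 and 666 in the controls. Of 10 NRF2 target genes 9 rose, among them Cbr3, Abcc4 and Gsta2, with differences of 6.73, 4.37 and 2.39.

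Acly was lower in every knockout and was the gene of the pathway that fell. Its 3 bright probe sets fell, at 42.3%, 42.9% and 35.9% of the control mean. Of the 19 lipogenesis probe sets that passed the filter on dim signals these were the 3 that fell, and 0 rose (11 lower and 0 higher at an unadjusted p under 0.05). Over all probe sets 0.714% fell and 0.803% rose. The share of all probe sets at an unadjusted p under 0.05 in this fit is not given here. The unadjusted counts, for these genes and for the lists below, therefore have no background beside them and are a description only. Taking each gene by its brightest probe set, 1 of 10 fell and 0 rose, against 0.875% and 0.975% of all genes. The log2 differences of the other genes' brightest probe sets were below 0 for 8 of 9, down to -1.12, but none of these passed. The median over the 10 genes was -0.60, and that over all 13027 genes was -0.02. Because the genes were chosen with earlier results of these data known, this contrast is a description and no test of the pathway. The knockout and control signals did not overlap in 8 of the 19 probe sets, all lower, and 11.4% of all probe sets were separated in that direction. These 8 were 3 of Acly, 2 of Acaca and 1 each of Acacb, Fasn and Acss2. Probe sets of 1 gene share their transcript and are not independent. In whole liver, fewer cells of a type and less RNA per cell cannot be told apart.

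The stretches before the transcription starts of Acly and Fasn are shown because these genes had the lowest adjusted p among the 10 when each is taken by its brightest probe set. Both are from RefSeq, build GRCm38.p6, 250 bases on the minus strand, read 5′ to 3′ toward the start, with capitals marking matches to the motifs searched. Acly lies at chr11:100528001-100528250 and Fasn at chr11:120824548-120824797.

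Acly: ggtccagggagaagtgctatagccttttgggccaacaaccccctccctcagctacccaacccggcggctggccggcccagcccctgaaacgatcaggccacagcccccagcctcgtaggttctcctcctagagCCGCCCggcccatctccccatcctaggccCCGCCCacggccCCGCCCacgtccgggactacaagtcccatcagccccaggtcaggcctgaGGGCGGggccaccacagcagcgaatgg

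Fasn: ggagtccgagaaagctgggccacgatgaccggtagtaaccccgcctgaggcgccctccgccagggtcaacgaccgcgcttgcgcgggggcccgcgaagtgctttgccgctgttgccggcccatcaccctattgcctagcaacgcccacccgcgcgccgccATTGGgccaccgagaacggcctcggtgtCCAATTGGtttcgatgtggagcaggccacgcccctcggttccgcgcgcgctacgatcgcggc

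In capitals in Acly are 4 GC boxes (GGGCGG or its reverse complement, the site of SP1-type factors), between 117 and 22 bases before the start. In Fasn they are 3 CCAAT boxes (CCAAT or ATTGG, the site of NF-Y), between 90 and 55 bases before it, of which a pair overlaps. The E-box CACGTG, the sterol regulatory element core TCACNCCAC and the antioxidant response element core TGACNNNGC were searched on both strands too and had no match in either stretch. Promoters were listed for 9 of the 10 genes, with 12 starts. Over these genes the CCAAT box was found in 7, the GC box in 5, the E-box in 2 (Mlxipl and Slc25a1), the sterol element core in 1 (Mlxipl) and the antioxidant element core in 1 (Acss2). Counted by start, the motifs in this order were in 8, 6, 2, 1 and 1 of the 12. The shares that follow are also counted by start. Of the 32851 promoter stretches of the same length in the table, 33.8% held the CCAAT box, 32.7% the GC box, 6.02% the E-box, 1.05% the sterol element core and 10.2% the antioxidant element core. A match describes the letters and is no evidence that a factor binds there.

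The carrier that exports citrate differed little. Slc25a1 had a signal of 5649, 5747 and 5755 in knockouts 3, 4 and 5 and of 7564, 5719 and 6587 in controls 1, 2 and 3. The knockouts lay close together (SD 59.4, against 923 in the controls), at the lower end of the controls, which they overlapped. The difference was -0.20 with a standard error of 0.11 and a 95% interval from -0.46 to 0.05 (limma adjusted p = 0.453). It was -0.10 without control 1, -0.30 without control 2, -0.37 when arrays were scaled on the hybridisation controls and -0.11 when they were centred on their medians.

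Acly, which turns that citrate into acetyl-CoA, was measured by 6 probe sets. The brightest, 1451666_at, stood at 5095, 7385 and 3731 in knockouts 3, 4 and 5. In controls 1, 2 and 3 it stood at 15295, 12495 and 10516. The highest knockout thus lay below the lowest control, with a gap larger than the SD of either group (5404 ± 1847 against 12769 ± 2401, n = 3 each). It fell by 1.28 on the log2 scale (standard error 0.23, 95% interval -1.79 to -0.76, limma adjusted p = 0.0304). A second probe set, 1439459_x_at, read 4471, 6427 and 3403 in the knockouts and 12742, 10803 and 9829 in the controls (difference -1.26, adjusted p = 0.0216). The third, 1425326_at, read 1091, 1635 and 727 against 3794, 3165 and 2661 (difference -1.53, adjusted p = 0.0248). All 3 gave the same order of mice, with knockout 5 lowest and control 1 highest. The other 3 were dim. The probe set 1446315_at, at the 43.1th percentile of mean signal, was tested and overlapped between the groups (84.2 ± 17.4 against 100.3 ± 15.9, difference -0.22, 95% interval -0.82 to 0.38, adjusted p = 0.759). The remaining pair fell under the filter, with means of 42.8 against 80.9 and of 17.3 against 30.4.

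The Acly difference stayed below 0 in every run that left out 1 mouse, but its size varied and its call was near the threshold. For the brightest probe set the difference ranged from -1.53 to -1.04 over the 6 runs. It was called in 1 of them, without knockout 4 (limma adjusted p = 0.00852), and not without knockout 3 (0.115), knockout 5 (0.0579), control 1 (0.106), control 2 (0.0969) or control 3 (0.0529). The other bright probe sets were called without knockout 4 (0.00434 and 0.0059) and without knockout 5 (0.0396 and 0.0384). They were not called without knockout 3 (0.0853 and 0.0878), control 1 (0.0793 and 0.0879), control 2 (0.0688 and 0.0803) or control 3 (both 0.051). None of the 3 passed after median centring (0.103, 0.0805 and 0.0644) or without the variance trend (0.13, 0.11 and 0.11), and the brightest did not without the filter (0.0629) or with a robust fit (0.0568).

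Acss2, which makes acetyl-CoA from acetate, gave different values by probe set. The bright probe set 1422478_a_at read 3056, 3135 and 3497 in the knockouts and 5062, 2978 and 3206 in the controls. Control 1 alone lay above the knockouts, and the difference of -0.18 had an interval from -0.59 to 0.24 (limma adjusted p = 0.71). It was 0.061 without control 1, -0.32 without control 2 and -0.27 without control 3, and -0.081 after median centring and -0.34 with the hybridisation controls. A second bright one, 1422479_at, read 3076, 3295 and 2716 against 4790, 2829 and 3739, and also overlapped (difference -0.29, adjusted p = 0.491). This value was -0.11 without control 1 and -0.48 without control 2, and -0.46 with the hybridisation controls. The dim 1446542_at read 83.2, 106 and 56.4 in the knockouts and 231, 215 and 153 in the controls, without overlap. Its difference was -1.15 with a 95% interval from -1.77 to -0.54, and it did not pass (adjusted p = 0.0886). A further probe set shared by Gssos2 and Acss2 was not counted and had signals between 3.7 and 33.3.

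**Figure D1:**
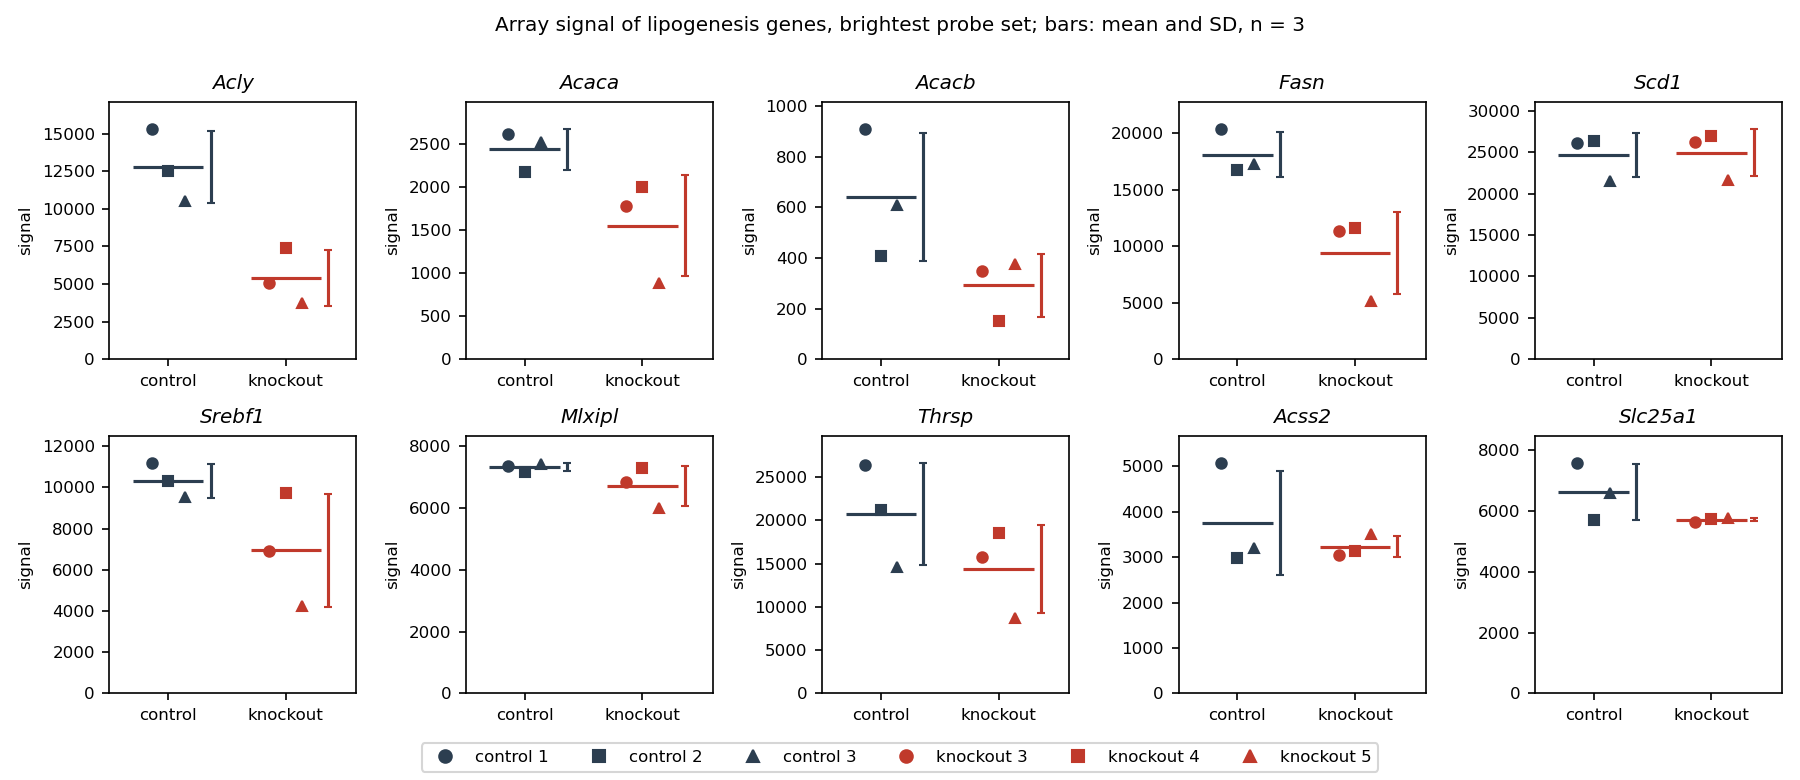
Array signal (linear axis from 0) of the brightest probe set of each of the 10 lipogenesis genes, with 1 symbol per mouse, controls in dark blue and knockouts in red, a line at the mean and a bar for the SD (n = 3). The groups are separated in Acly, Acaca, Acacb and Fasn, with the knockouts lower, and overlap in the other 6 genes. Of all 13027 genes tested by their brightest probe set, 1422 were separated in that direction.

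The carboxylases Acaca and Acacb were below the controls in every knockout without passing. Acaca, whose product feeds fatty acid synthesis, read 1777, 1998 and 885 in knockouts 3, 4 and 5 in its brighter probe set. The controls read 2621, 2174 and 2522. Knockouts 3 and 4 lay just under the lowest control and knockout 5 far below them. The difference was -0.72 (standard error 0.26, interval -1.31 to -0.13, limma adjusted p = 0.247), and without knockout 5 it was -0.37. The dimmer Acaca probe set read 467, 591 and 439 against 720, 614 and 743, a difference of -0.47 (adjusted p = 0.2). Acacb, whose malonyl-CoA restrains the entry of fatty acids into mitochondria, read 348, 151 and 377 in the knockouts and 909, 406 and 611 in the controls. Here knockout 4, not knockout 5, was lowest, and the highest knockout lay just under the lowest control. The difference was -1.12 with an interval from -1.94 to -0.31 (adjusted p = 0.197), from -1.41 without control 2 to -0.73 without knockout 4. The other Acacb probe set was under the filter, at 55.0 ± 15.3 in knockouts and 33.4 ± 21.5 in controls.

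Fasn, the enzyme that assembles palmitate, had 1 probe set. It read 11385, 11622 and 5163 in knockouts 3, 4 and 5 and 20345, 16695 and 17254 in controls 1, 2 and 3. The groups did not overlap, and knockout 5 stood far below the other 2 knockouts. The knockout mean was 51.9% of control (9389.9 ± 3662 against 18098 ± 1966, n = 3 each). The difference was -1.03 with a standard error of 0.27 and an interval from -1.65 to -0.42, and Fasn did not pass (limma adjusted p = 0.122). Without knockout 5 the difference was smaller, at -0.65, and passed (adjusted p = 0.0454). With any of the other mice left out it did not (0.155 and 0.0998 for knockouts 3 and 4; 0.297, 0.224 and 0.214 for controls 1 to 3).

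The 2 probe sets of Scd1 disagreed. The brighter, 1415964_at, at the 99.8th percentile of mean signal, read 26225, 26921 and 21684 in the knockouts and 26156, 26307 and 21571 in the controls. The groups overlapped fully, with a difference of 0.015 and a 95% interval from -0.26 to 0.29 (limma adjusted p = 0.973). The direction of this value is not settled, since it was -0.15 after quantile normalization and -0.11 after cyclic loess. The dimmer, 1415965_at, read 4475, 5665 and 3081 in the knockouts and 9828, 10879 and 4757 in the controls. Controls 1 and 2 lay above every knockout and control 3 between knockouts 3 and 4. Its difference was -0.90 with an interval from -1.60 to -0.20 and did not pass (adjusted p = 0.227). Which of the 2 follows the amount of Scd1 RNA was not tested.

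Of the regulators, Srebf1 was the lower one and Mlxipl nearly level. Srebf1 read 6903, 9725 and 4226 in knockouts 3, 4 and 5 and 11165, 10302 and 9515 in controls 1, 2 and 3. Knockout 4 lay within the controls and the other 2 knockouts below them. The difference was -0.65 with an interval from -1.21 to -0.09, without passing (limma adjusted p = 0.276), and it was -0.33 without knockout 5. Which of the transcripts of SREBP-1a and SREBP-1c the single probe set reads was not known here. Mlxipl read 6841, 7286 and 6009.7 in the knockouts and 7355, 7186 and 7429.9 in the controls. Knockout 4 lay within the controls, which lay close together (SD 125). The difference was -0.13, with an interval from -0.35 to 0.09 (adjusted p = 0.586). It was -0.053 without knockout 5, -0.035 after median centring and -0.29 with the hybridisation controls. These are transcript levels, and the cleavage of SREBP-1 and the activity of ChREBP were not measured.

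Thrsp, the small acidic protein that rises with feeding, had 3 probe sets and large spread in both groups. The brightest read 15805, 18573 and 8709 in knockouts and 26324, 21158 and 14628 in controls, so that control 3 lay below knockouts 3 and 4. Its difference was -0.56 with an interval from -1.20 to 0.09 (limma adjusted p = 0.415). The second read 8842, 11291 and 4099.7 against 21882, 14532 and 8809, a difference of -0.92 (adjusted p = 0.324). Without knockout 5 these 2 differences were -0.23 and -0.50, and without control 1 they were -0.36 and -0.61. The dimmest, at 351 ± 98.4 against 445 ± 232, differed by -0.24 (adjusted p = 0.802). It differed by 0.14 without control 1, -0.051 without knockout 5, -0.44 without knockout 3 and -0.60 without control 3, and by -0.145 after median centring and -0.40 with the hybridisation controls.

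**Figure D2:**
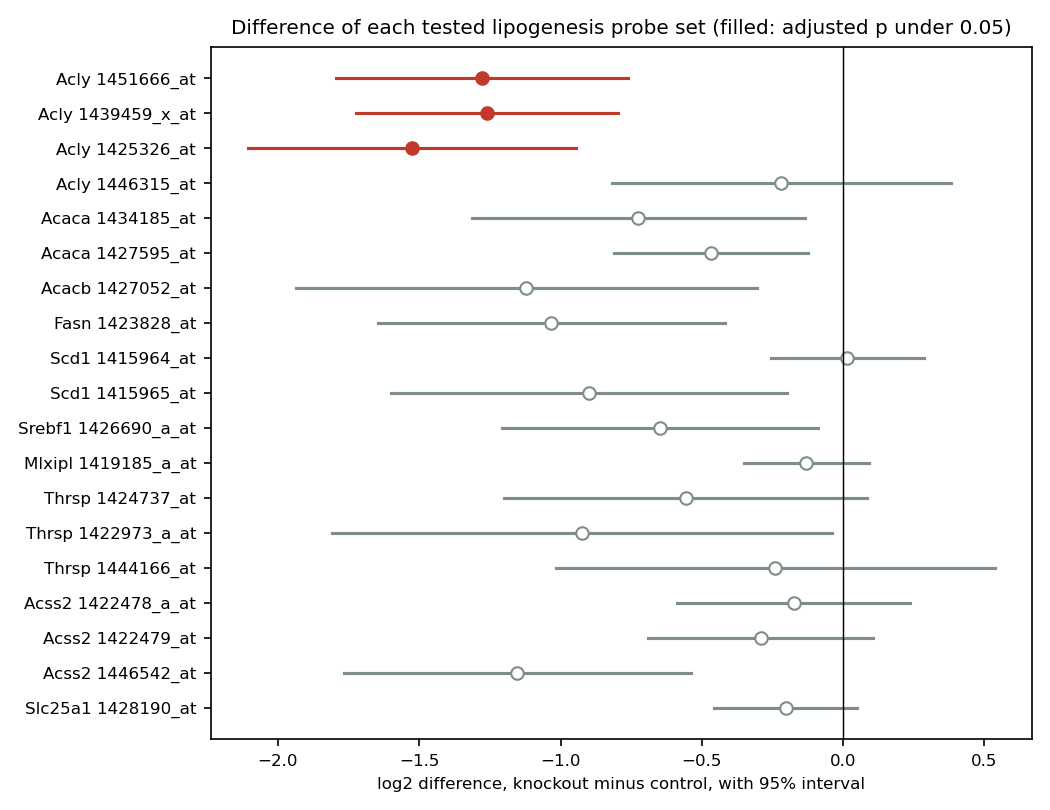
Log2 difference, knockout minus control, of each of the 19 tested lipogenesis probe sets, with its 95% interval from limma; filled red points had an adjusted p under 0.05. The 3 filled points are the bright Acly probe sets, and the 1 point above 0 is the brighter Scd1 probe set, at 0.015, which was at -0.15 after quantile normalization.

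The spread within each group followed the same mice across much of the pathway. Knockout 5 was the lowest of the 3 knockouts in 16 of the 19 tested probe sets, and in 7 of the 10 genes by their brightest probe set, namely Acly, Acaca, Fasn, Scd1, Srebf1, Mlxipl and Thrsp. Over all tested probe sets knockout 5 was the lowest knockout in 28.7%. Knockout 4 was the highest knockout in 15 of 19, and in 28.9% of all probe sets. Control 1 was the highest control in 14 of 19, and in 26.1% of all. Relative to the control mean, the median of the 10 genes on the log2 scale was -0.40 in knockout 3, -0.21 in knockout 4 and -0.94 in knockout 5, against 0.19, -0.07 and -0.09 in controls 1, 2 and 3. Acacb, Acss2 and Slc25a1 did not share the low value of knockout 5 in their brightest probe sets. For Acacb knockout 5 was the highest knockout, at -0.67, and for Acss2 too, at -0.06. The probe sets of a gene share a transcript, and these orders are a description with no test. The actin 3′ to 5′ signal ratio, a sign of RNA quality, was highest among the knockouts in knockout 5, at 1.85, and ran from 1.54 to 1.90 in the controls; its part in these values was not tested.

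**Figure D3:**
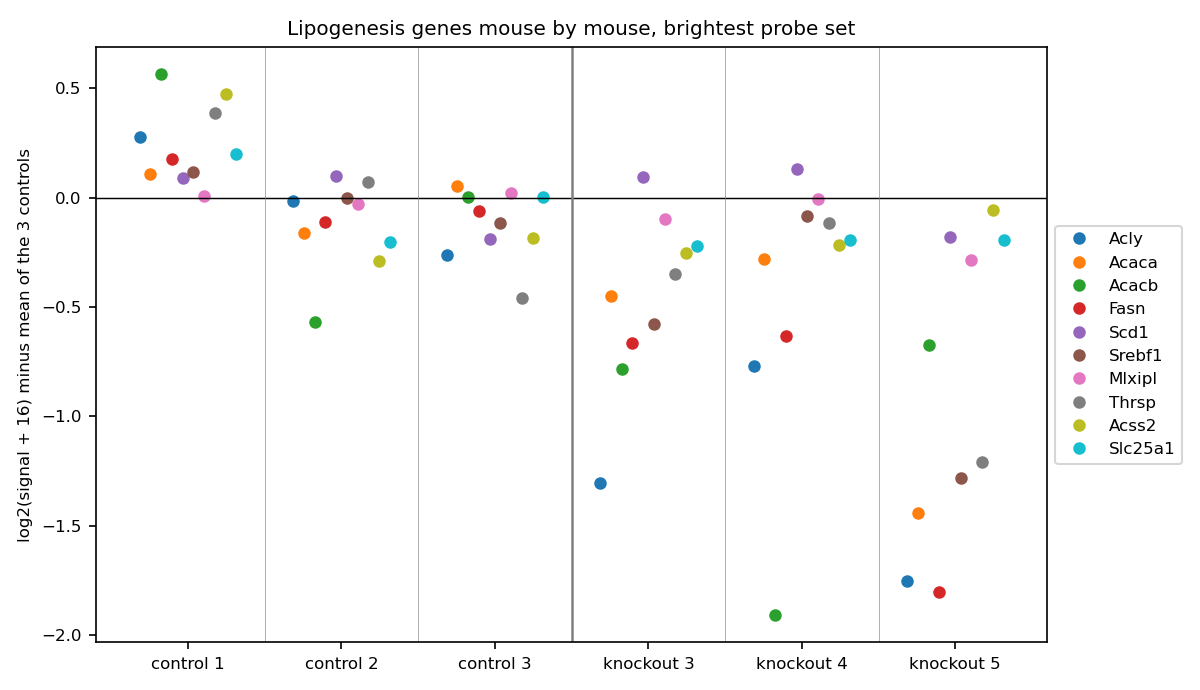
Log2(signal + 16) of the brightest probe set of each lipogenesis gene minus the mean of the 3 controls, with 1 column per mouse and 1 colour per gene. In the column of knockout 5 Acly, Acaca, Fasn, Srebf1 and Thrsp lie between -1.80 and -1.21, while Acss2 and Slc25a1 lie near -0.06 and -0.19 and Acacb is lowest in knockout 4.

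The genes most like the pathway were sought by the correlation of their log2 signal, over the 6 mice, with the mean of the standardised signals of the 10 genes. Of 13017 other genes 26 had r above 0.95 and 44 had r below -0.95. The 6 highest were Ensa (0.993), Rps19bp1 (0.987), Trit1 (0.987), Pygl (0.986), Ccar1 (0.985) and Denn2b (0.982), and the 3 lowest Tnfrsf4 (-0.992), Siva1 (-0.990) and Tor1a (-0.989). All 9 differed by at most 0.46 in size between the groups and none passed. The points are 6 arrays in 2 groups, compared over 13017 genes, so the values are a ranking only.

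Genes around the pathway were read from lists made for this comparison, each gene by its brightest probe set. The lists too were chosen with earlier results of these data known, so their counts and medians are a description. Among the processing partners and co-regulators of SREBP-1c 1 of 17 fell and 0 rose (2 lower and 1 higher at an unadjusted p under 0.05), with a median of -0.09. The gene that fell was Insig1, which holds SREBP in the endoplasmic reticulum and is itself an SREBP target. It read 2854, 1881 and 3261 in knockouts and 8526, 4733 and 5506 in controls (difference -1.22, limma adjusted p = 0.0493). Its call was lost without any 1 mouse (0.125, 0.0992 and 0.0581 without knockouts 3, 4 and 5, and 0.115, 0.0585 and 0.105 without controls 1, 2 and 3). In the control of acetyl-CoA carboxylase, by AMP-activated kinase and others, 0 of 10 passed (2 lower and 1 higher unadjusted). The largest difference there was that of the kinase subunit Prkab2, at -0.57 (adjusted p = 0.293). Of the other LXR targets 0 of 8 passed (0 lower and 1 higher unadjusted), with a median of 0.09, and the sterol exporter Abcg5 differed most, at 0.87 (adjusted p = 0.096). Abcg5 passed without control 1 (0.00656). It did not without knockouts 3, 4 and 5 (0.177, 0.21 and 0.195) or controls 2 and 3 (0.245 and 0.217).

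In NADPH supply 1 of 6 rose and 0 fell (2 higher and 0 lower unadjusted). Pgd, an NADPH-making enzyme of the pentose phosphate pathway, rose from 1739, 1665 and 1455 in controls to 4027, 3979.8 and 2799 in knockouts (difference 1.13, limma adjusted p = 0.00932), and was called without any 1 mouse. In acetyl-CoA and citrate supply 0 of 10 passed, and 0 did at an unadjusted p under 0.05. The median was 0.19, and the largest difference was that of Dlat, a subunit of pyruvate dehydrogenase, at -0.37 (adjusted p = 0.359). Among glucose handling and other ChREBP targets 1 of 9 fell and 0 rose (1 lower and 0 higher unadjusted). This was Pklr, the liver pyruvate kinase, at 1951, 2345 and 1717 in knockouts and 4071, 4277 and 3840.0 in controls. Its groups were far apart (difference -1.02, standard error 0.13, adjusted p = 0.00564), and it was called without any 1 mouse.

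Of 16 genes of elongation, desaturation and esterification 5 fell and 0 rose (8 lower and 1 higher unadjusted), with a median of -0.74. They were the elongases Elovl3, Elovl5 and Elovl2, the lipid-droplet protein Pnpla3 and the acyl-CoA synthetase Acsl3, at -1.89, -0.83, -0.76, -1.62 and -1.14. Pnpla3, an SREBP-1c target, read 206, 308 and 143 in knockouts and 661, 696 and 669 in controls, with knockout 5 lowest again. Its call (limma adjusted p = 0.0131) was lost without knockout 3 (0.0557) and control 2 (0.0508). The call of Elovl3 was lost without knockouts 4 and 5 (0.0625 and 0.0744) and controls 1 and 3 (0.0503 and 0.0654). Acsl3 was not called without knockouts 3 and 4 (0.1 and 0.0624) and controls 1 and 2 (0.0704 and 0.0827). Elovl2 and Elovl5 were not called without knockouts 3 and 5 (0.11 and 0.06 for Elovl2, 0.131 and 0.0944 for Elovl5) and controls 1 and 2 (0.0729 and 0.0757, 0.114 and 0.115). Of the other SREBP-2 targets 1 of 11 fell and 0 rose (6 lower and 0 higher unadjusted), with a median of -0.61. It was the sterol carrier Stard4, at -1.08 (adjusted p = 0.0188), not called without knockouts 3 and 4 (0.0846 and 0.0532) and controls 1 and 2 (0.0503 and 0.0613). Without the variance trend none of the 9 genes named here as risen or fallen around the pathway passed (0.0561 for Pklr to 0.158 for Insig1), and after median centring Insig1, Acsl3, Stard4, Elovl2 and Elovl5 did not (0.0707, 0.0554, 0.0505, 0.155 and 0.176). Elovl3 did not pass with a robust fit (0.0654), nor Elovl2 and Elovl5 without the filter (0.0567 and 0.0707). Insig1 did not pass without the filter (0.0906), with an offset of 1 (0.0517), after quantile normalization (0.0503) or cyclic loess (0.0541), or with a robust fit (0.0845). Whether any of these lists differs from the lipogenesis genes was not tested.

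**Figure D4:**
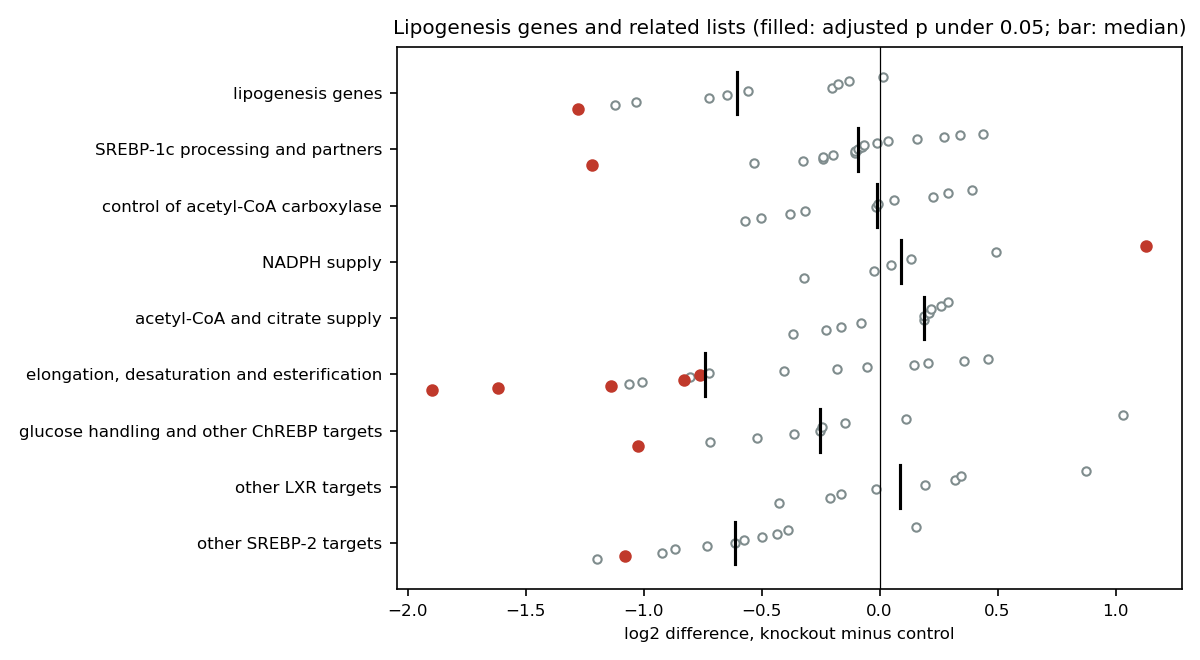
Log2 difference, knockout minus control, of each gene of the lipogenesis genes and of 8 related lists, by its brightest probe set; filled red points had an adjusted p under 0.05 and the black bar is the median of the list. The medians of the lipogenesis genes, of elongation, desaturation and esterification and of the other SREBP-2 targets are at -0.60, -0.74 and -0.61, and those of acetyl-CoA and citrate supply and of NADPH supply at 0.19 and 0.09.

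Cell type markers were read beside these values. Of 9 hepatocyte markers 0 passed (4 higher and 0 lower at an unadjusted p under 0.05), and their summed signal was 196721 to 207429 in knockouts and 167902 to 197404 in controls. Albumin (Alb), which defines hepatocytes, was bright on every array, at 25933 to 28702 in knockouts and 22569 to 25027 in controls. The log2 difference was below 0 for 2 of the 9 hepatocyte markers, Pck1 at -0.67 and Ass1 at -0.50. Both overlapped between the groups (limma adjusted p = 0.508 and 0.475). Adipocytes also make fatty acids. Of 3 tested adipocyte markers 0 passed (0 unadjusted), and the summed signal of all 6 on the array was 936 to 1110.3 in knockouts and 864 to 895 in controls. The defining adipocyte genes Adipoq and Lep were dim, at 8.2 to 60 and 7.9 to 33.1 over the 6 mice, and fell under the filter. The 3 tested markers were brighter. Mean signals in knockouts and controls were 596 and 509 for Fabp4, 251 and 170 for Retn, and 124.5 and 114 for Slc36a2. All 3 means were higher in knockouts, and in all 3 the groups overlapped. Of the dim markers, Adipoq and Cidea had lower means in knockouts (28.4 against 35.7 and 31.9 against 38.5). Lep had a higher one (17.1 against 14.4), and these groups overlapped too. Of 8 tested Kupffer cell markers 0 passed (2 higher unadjusted), with summed signals of 12171 to 15951 in knockouts and 8871 to 15208 in controls. Of 8 stellate and 7 endothelial cell markers 0 passed (1 higher and 1 lower unadjusted in each), with summed signals of 11635 to 12829 against 11471 to 12596, and of 7081 to 7437 against 7097 to 7418. Single markers differed more than these sums. The Kupffer cell marker Marco was at 265% and the endothelial marker Lyve1 at 246% of control, without overlap (limma adjusted p = 0.12 and 0.117). The stellate marker Reln and the endothelial marker Fcgr2b were at 80.4% and 79.7%, also without overlap (limma adjusted p = 0.276 and 0.258). Of 3 tested cholangiocyte and 3 tested lymphocyte markers 0 passed (0 unadjusted). The summed lymphocyte signal was 887 to 1056 in knockouts and 815 to 975 in controls. The summed cholangiocyte signal ranged from 318 to 588 in knockouts and from 358 to 1495 in controls, where control 2 had a Krt19 signal of 502. The part of these cells in the results was not tested.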

How the data were processed

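For each mouse and probe set the authors deposited 1 intensity on a linear scale. Biotin-labelled cRNA was hybridised, per the labels' protocols; no source here names the summarising software. The trimmed mean of every array was equal, so the authors had scaled the values to a common target, and a change in total RNA would be hidden. The 64 control probe sets were left out. The platform table gave 34945 probe sets 1 symbol, 932 several and 9160 none, and genes were named only from those with 1.

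Probe sets with a mean log2(signal + 16) at or above the 40th percentile entered limma (version 3.58.1, under R 4.3.3; lmFit and eBayes, variance trend, two-sided, Benjamini-Hochberg over 27022 probe sets, threshold 0.05). The offset understates the change of dim genes. With 3 mice against 3 an exact permutation test of 1 value cannot go below p = 0.1, and the number of arrays limits the precision. Replicate numbers do not pair the mice. The fit was also run on simulated data, with a lower filter than the one used here and independent noise for each probe set. That run does not measure the accuracy of these results. Named context genes were those called in each list, at most 3 by size, or else the gene with the largest difference; Elovl2 and Elovl5 were added after their values were seen, as was the printing of the Fasn promoter. The members and lists were chosen with earlier results of these data known. Promoter stretches are from RefSeq. Alternatives were other filters, offsets, normalizations, variance models, features, a Welch test per probe set, and leaving out each mouse.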

Additional observations from a re-analysis of the deposited data

How the results depend on the processing

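Of 368 values of the lipogenesis probe sets under the alternatives, 360 kept their direction. Changing the filter, the variance trend, the robust fit, the features or the test leaves the difference itself unchanged. Those values could not reverse, so the count overstates how far direction was put to a test. The exceptions were the brighter Scd1 probe set, at -0.15 after quantile normalization, -0.11 after cyclic loess and -0.15 after scaling on the hybridisation controls, and -0.079 to 0.11 without 1 mouse; the dimmest Thrsp probe set, at -0.60 to 0.14 without 1 mouse; and the brightest Acss2 probe set, at -0.32 to 0.061. The count of lipogenesis probe sets called was 0 after median centring, 0 without the variance trend, 0 with the Welch test (6, 9 and 5 lower at an unadjusted p under 0.05), 1 with 1 probe set per gene, 5 with the hybridisation controls, where Fasn and the dim Acss2 probe set joined Acly, and 0 to 3 without 1 mouse, with 0 without knockout 3 or any 1 control. The count over all probe sets was 410, but 271 without a filter, 105 without the trend, 258 with 1 probe set per gene, 0 with the Welch test (2539 at an unadjusted p under 0.05), and 158 to 297 without 1 mouse, being 158 without knockout 3 and 213, 210 and 246 without controls 1, 2 and 3. The causes were not tested. The share of higher calls, 52.9%, was 66.3% after median centring and 23.7% with the hybridisation controls, under which the median over probe sets was -0.20, against -0.04 as deposited. No paired analysis was possible because the groups share only the replicate number 3.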
